A study of Rattus norvegicus with 12 samples.

Results

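The genes described here are 44 genes of DNA replication and of the passage from G1 into S phase, read in cultured rat FLS (fibroblast-like synoviocytes, the lining cells of the joint) with and without TCDCA (taurochenodeoxycholic acid, a taurine-conjugated bile acid). They were taken by symbol from a table of 22442 gene records, and where a symbol had more than 1 record the record with the highest mean over the libraries was used. All 44 had a record, and all 44 were among the 11611 that entered the tests, those whose mean reached 1 FPKM (fragments per kilobase of exon, scaled to the mapped reads of the library). The FLS were grown out of the synovial tissue of male Sprague Dawley rats with AA (adjuvant arthritis, a joint inflammation raised by an injection of adjuvant into the paw), so the controls carried the arthritis as well. Cells of the third passage in exponential growth were kept for 12 h in DMEM alone (FCA group) or with TCDCA at 0.1 µM (AT01), 1 µM (AT1) or 10 µM (AT10), and poly(A) RNA was sequenced in 3 libraries of each group, 12 in all. FLS of healthy rats were not analysed here, and the age of the animals is not given in the sources used here. The sources used here do not say whether the 3 libraries of a group came from separate cultures or animals, so the p-values measure the spread between these libraries, which may be technical.

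Replication begins in G1, when the origin recognition complex, Cdc6 and Cdt1 load rings of MCM2-7 onto DNA, and geminin blocks Cdt1 once S phase has begun. Cyclin E drives the entry into S phase, the loaded rings become active helicases when Cdc45 and the GINS complex join them, and primase, the replicative polymerases, the PCNA clamp, Fen1 and DNA ligase then copy both strands while ribonucleotide reductase and thymidylate synthase supply the nucleotides. Transcription of most of these genes is driven by E2F factors, which retinoblastoma proteins hold back until cyclin-dependent kinases release them. FLS multiply in the inflamed joint, where their overgrowth forms the pannus that invades cartilage.

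Because E2F factors are the known common regulators of the set, the promoters were searched for 4 E2F words of 8 letters, TTTCCCGC, TTTCGCGC, TTTGCCGC and TTTGGCGC, on both strands and with overlaps allowed. RefSeq promoter windows (250 bases before the start of the gene, GRCr8) matched 37 of the 44 symbols, and Orc1, Cdc6, Mcm4, Gins4, E2f1, Ccne2 and Rrm2 were not matched. A word was found in 10 of the 37 windows (27.0%), those of Gins1, Gins3, Mcm2, Mcm5, Mcm6, Mcm7, Pola1, Slbp, Tyms and Uhrf1, against 525 of the 27457 genes of the whole table (1.91%). The CCAAT box, searched as CCAAT on both strands, was present in 21 of the 37 (56.8%) and in 36.1% of the whole table. The windows below are those of the 4 ring subunits with a word, of Gins1 and of Tyms, shown because Mcm2, Mcm5, Mcm6 and Gins1 each carry a pair of words that overlap on opposite strands. Capitals mark the E2F words, and each window runs 5′ to 3′ on the strand of its gene. A match describes the letters and does not show that a factor binds there.
Mcm2 promoter, chr4:122918095-122918344, minus strand: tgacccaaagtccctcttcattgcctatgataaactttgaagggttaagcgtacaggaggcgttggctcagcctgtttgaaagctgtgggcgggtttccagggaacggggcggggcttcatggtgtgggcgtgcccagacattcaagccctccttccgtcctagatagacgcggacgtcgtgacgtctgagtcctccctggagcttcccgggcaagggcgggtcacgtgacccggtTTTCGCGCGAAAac
Mcm5 promoter, chr19:13488563-13488812, plus strand: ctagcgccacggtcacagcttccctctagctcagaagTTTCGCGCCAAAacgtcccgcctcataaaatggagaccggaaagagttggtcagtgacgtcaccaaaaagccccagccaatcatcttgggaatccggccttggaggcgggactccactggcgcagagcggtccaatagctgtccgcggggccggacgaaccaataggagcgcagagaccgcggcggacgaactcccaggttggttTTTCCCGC
Mcm6 promoter, chr13:42404353-42404602, minus strand: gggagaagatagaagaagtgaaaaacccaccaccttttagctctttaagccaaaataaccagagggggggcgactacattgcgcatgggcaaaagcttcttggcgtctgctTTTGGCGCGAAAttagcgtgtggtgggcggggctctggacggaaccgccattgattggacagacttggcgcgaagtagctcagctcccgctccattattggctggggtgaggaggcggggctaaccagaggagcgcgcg
Mcm7 promoter, chr12:22163179-22163428, minus strand: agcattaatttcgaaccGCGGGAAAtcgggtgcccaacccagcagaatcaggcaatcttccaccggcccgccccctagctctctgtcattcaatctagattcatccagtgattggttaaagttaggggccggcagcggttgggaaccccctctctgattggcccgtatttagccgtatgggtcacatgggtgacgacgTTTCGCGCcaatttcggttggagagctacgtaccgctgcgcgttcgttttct
Gins1 promoter, chr3:160184670-160184919, plus strand: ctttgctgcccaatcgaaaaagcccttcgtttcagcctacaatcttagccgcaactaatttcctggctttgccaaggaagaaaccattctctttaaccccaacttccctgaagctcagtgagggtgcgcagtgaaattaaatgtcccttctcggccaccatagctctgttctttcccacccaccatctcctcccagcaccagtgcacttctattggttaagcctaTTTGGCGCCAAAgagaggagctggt
Tyms promoter, chr9:120776084-120776333, minus strand: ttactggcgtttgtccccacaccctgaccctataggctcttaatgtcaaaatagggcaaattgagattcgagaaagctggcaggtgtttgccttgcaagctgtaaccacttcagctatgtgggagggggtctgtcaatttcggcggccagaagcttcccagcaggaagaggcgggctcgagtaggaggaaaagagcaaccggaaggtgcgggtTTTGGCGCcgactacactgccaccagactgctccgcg

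The overlapping pair of Mcm2 began 14 bases before the start, that of Gins1 25 bases, that of Mcm6 139 bases and that of Mcm5 213 bases before it. Mcm5 had a further word that ended at the start itself. The single word of Tyms began 37 bases before its start. In AT10 against FCA the median log2 fold change was 0.08 for the 10 genes with a word, of which 1 was higher at an unadjusted p under 0.05 in limma, and 0.07 for the 27 without, of which 3 were (7.54% of all records tested). In AT1 the medians were 0.06 with a word and −0.003 without, and 0 and 1 were higher (5.56% of all records). In AT01 the medians lay the other way, at −0.01 and 0.06, with 0 and 1 higher (2.57% of all records).

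FPKM summed to between 284210 and 309696 per library, 17736 to 18505 records were above 0, and no 2 libraries held identical values. The table holds FPKM without read counts. The read totals that the study lists differ between libraries and entered no calculation here, so no counting error is given. Of the 14 fibroblast markers listed for FLS, 12 had a record, with means over the libraries from 14.1 FPKM (Fap) to 2658 FPKM (Vim). The 5 lymphocyte markers and 7 of the 8 endothelial markers with a record stayed under 0.5 FPKM in every library, Egfl7 being the exception at a mean of 19.4 FPKM. Among the 7 macrophage markers with a record Cd14 averaged 13.8 FPKM and Cd68 2.13 FPKM, while the defining Adgre1 and Csf1r averaged 0.01 and 0.16 FPKM. The 8 smooth muscle markers with a record summed to between 348.61 and 453.53 FPKM in FCA, 256.27 and 324.09 in AT01, 287.35 and 327.21 in AT1 and 184.41 and 346.35 in AT10, mostly from Acta2, so each treated library lay below each FCA library. Of the 6 tested, only Acta2 and Smtn had each treated library below each FCA library (2 of 6, and 221 of the 11611 records tested), and the others overlapped FCA. The part of the difference in Acta2 and Smtn in the values below was not tested.

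All 44 genes were expressed in each group, at means over the 12 libraries from 2.62 FPKM for Cdc45 to 39.3 FPKM for Mcm7, with a median of 10.4 FPKM. FPKM is a value per length, which is why the levels are set side by side here. For 27 of the 44 genes the record holds several transcripts, and what this does to the order of levels was not tested. The 4 most abundant after Mcm7 were Pcna at 37.5, Rrm1 at 37.2, Mcm6 at 37.1 and Slbp at 35.1 FPKM, and the scarcest after Cdc45 were Gins2 at 2.63, Gins3 at 2.71 and Pola1 at 2.78 FPKM. In the order of levels most neighbours did not differ by more than their spread between libraries, for example Pcna (SD 3.92 over 12 libraries) and Rrm1 (SD 3.52).

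Between libraries the genes of the set varied less than the typical record. The coefficient of variation over the 12 libraries had a median of 10.8% over the 44 genes, from 5.51% for Pole to 48.2% for Gins2, and a median of 15.1% over all records tested and of 13.7% over the 7690 records in the same range of levels. The highest library was less than 1.5 times the lowest for 26 of the 44 (59.1%), against 36.4% of all records tested and 41.8% of those in the same range of levels. It was more than 2 times the lowest for 6 genes, namely Fen1, Gins3, Gins2, Ccne2, Gins1 and Pola1. A split of the libraries into a low and a high level, with at least 2 libraries in each and between them a gap of at least 1 on the log2(FPKM + 1) scale that was wider than the spread within either, was met by 0 of the 44 and by 525 of the 11611 records tested. Gins2, with 3 libraries above the rest, and Gins3, with 2 below the rest, had smaller gaps than that.

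**Figure D1:**
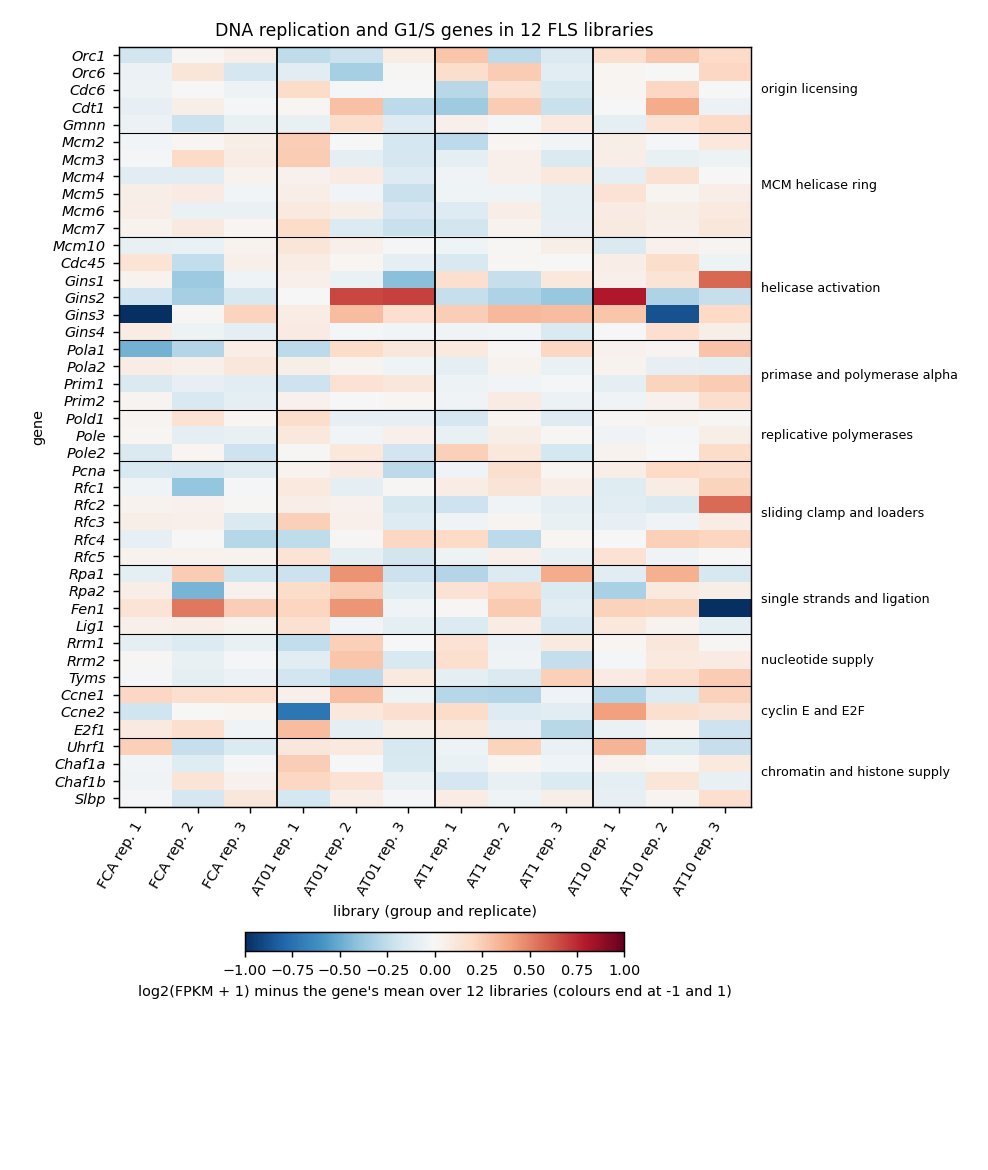
Each row is a gene, grouped by its role, each column a library, and the colour gives log2(FPKM + 1) minus the mean of the gene over the 12 libraries, with colours that end at −1 and 1. Most rows are pale. The strong colours are a few libraries of Gins2 and Gins3 and single libraries of Fen1, Rfc2, Gins1 and Ccne2, for example Fen1 at 1.24 FPKM in AT10 replicate 3.

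As a set, the genes had a slightly higher mean level in AT10 than in FCA, a description with no test. The mean over the 44 genes of log2(FPKM + 1), centred on the 12 libraries, was −0.05, −0.04 and −0.02 in the FCA libraries, 0.04, 0.05 and 0.04 in AT10, −0.03, 0.01 and −0.04 in AT1, and 0.03, 0.07 and −0.05 in AT01. The same mean over all records tested lay between −0.03 and 0.02. The 3 AT10 libraries therefore stood above the 3 FCA libraries and above the 3 AT1 libraries, whereas AT01 spanned the whole range. The study lists a lower GC content for each AT10 library than for each FCA library, and its part in this difference was not tested. The summed level of the 44 genes was 646.22 to 655.32 FPKM in FCA, 675.06 to 708.70 in AT10, 645.06 to 670.81 in AT1 and 619.53 to 696.86 in AT01. In bulk RNA a larger share of cells in S phase and more RNA per cell cannot be told apart. AT01 replicate 3 held the lowest value of the 12 for 9 genes and the highest for none, and AT01 replicate 1 the highest for 11. AT01 replicate 3 also had the lowest mean of the 12 over all records tested, at −0.03. On the same scale it was at −0.08 for the wider replication and G1/S list and at 0.06 for the mitosis and G2/M genes, both described below. The study lists the most reads for this library, and it had the most records above 0 (18505). The part of these in its low level was not tested. The level of the set was spread most widely among the replicates of AT01.

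**Figure D2:**
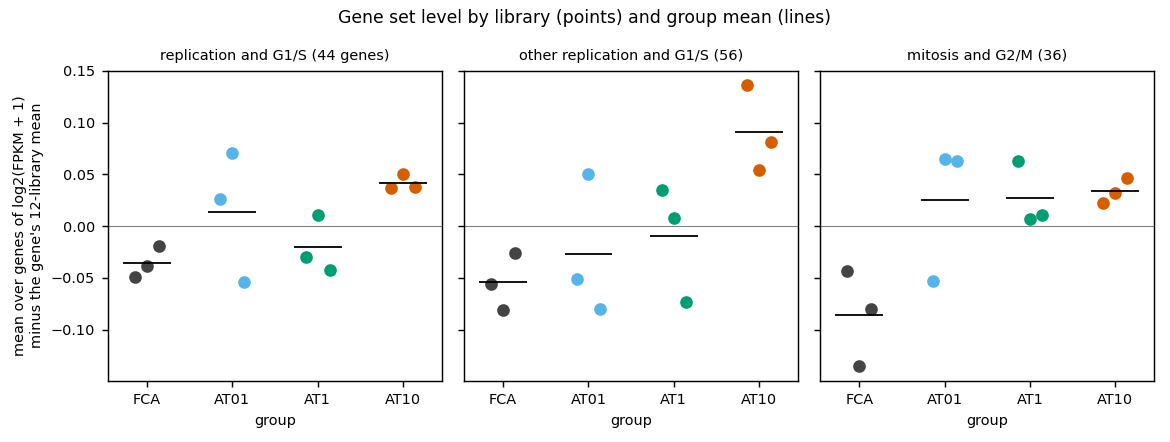
Points are libraries and lines are group means of the centred mean log2(FPKM + 1) over the 44 genes (left), the 56 tested genes of a wider replication and G1/S list (middle) and the 36 tested genes of mitosis and G2/M (right). In the left panel AT10 sits at 0.04 to 0.05 and FCA at −0.05 to −0.02.

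In AT10 against FCA, the comparison of the highest dose with untreated cells, 35 of the 44 genes had a positive log2 fold change and 9 a negative one. The median was 0.08 on the log2(FPKM + 1) scale, against −0.01 over all records tested. At an unadjusted p under 0.05 in limma 6 genes were higher (13.6%, where 7.54% of all records tested were) and 0 were lower (4.34% of all records): Pcna, Rfc4, Orc1, Rrm1, Tyms and Ccne2. After Benjamini-Hochberg adjustment over the 11611 records 0 of the 44 passed 0.05 (0.172% of all records did), the smallest adjusted p being 0.178 for Pcna, so each of the 6 is a difference that failed the correction. The count of 6 depended on the fit. In 1 limma fit of all 12 libraries Pcna alone was higher (5.52% of all records), and without AT10 replicate 2 the count was 1 (5.52% of all records). With the replicate number as a block 3 were higher (7.09% of all records), among them Pcna and Orc1, while Rfc4, Rrm1, Tyms and Ccne2 were not. The criterion of the study was a fold change above 2 in either direction with an unadjusted p under 0.05. Applied here to limma on log2(FPKM + 1), it was met by 0 of the 44 and by 82 of the 11611 records tested. The 95% interval of the difference lay within ±0.5 for 30 genes and within ±1 for 41. With 3 libraries against 3 the exact permutation test cannot go below 0.1, a value reached by the 8 genes whose AT10 libraries were all above FCA (1241 of 11611 records) and by Pola2, whose AT10 libraries were all below it (1066 of 11611 records). The AT10 libraries of Gins1 and Chaf1a were also all above FCA, at an unadjusted limma p of 0.0803 and 0.158.

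The smallest p of the 44 genes was that of Pcna, the ring that tethers polymerases to the template. Pcna had 33.42, 33.00 and 34.28 FPKM in FCA, 39.03, 42.95 and 42.34 in AT10, 36.36, 41.66 and 37.71 in AT1, and 38.31, 39.58 and 30.96 in AT01. Every AT10 and AT1 library was above every FCA library, and 1 of the AT01 libraries was below all 3 of them. The mean was 41.4 ± 2.11 FPKM (SD of 3 libraries) in AT10 and 33.6 ± 0.653 in FCA, a log2 fold change of 0.30 (SE 0.06, limma adjusted p = 0.178). The difference was under an unadjusted p of 0.05 with any of the 6 libraries left out, at a log2 fold change of 0.27 to 0.34.

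The clamp loader, the complex of Rfc1 to Rfc5 that opens PCNA and closes it around primed DNA, was expressed at means of 8.84 FPKM (Rfc1), 14.9 (Rfc2), 20.1 (Rfc3), 17.7 (Rfc4) and 10.8 (Rfc5). Rfc4 had 16.47, 17.42 and 14.17 FPKM in FCA, 17.53, 20.81 and 20.49 in AT10, 20.31, 14.48 and 17.76 in AT1, and 14.52, 17.67 and 20.38 in AT01. Its lowest AT10 value exceeded the highest FCA value by a narrow margin, and both other doses overlapped FCA. The log2 fold change of Rfc4 in AT10 was 0.28 (SE 0.11, limma adjusted p = 0.408), and the unadjusted p was above 0.05 without FCA replicate 1, FCA replicate 3, AT10 replicate 2 or AT10 replicate 3 (0.0746 to 0.123). Rfc3 and Rfc5 had log2 fold changes of −0.005 and 0.001 in AT10. Rfc2 had 22.37 FPKM in AT10 replicate 3 and 12.64 to 15.48 in the other treated libraries, which gave a log2 fold change of 0.07 with that library and of −0.16 (adjusted p = 0.545 and 0.0487 before adjustment, in limma) without it.

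Of the origin licensing genes all 5 had a positive log2 fold change in AT10, with a median of 0.12. Orc1, the largest subunit of the origin recognition complex, had 14.26, 16.39 and 16.98 FPKM in FCA, 18.55, 19.87 and 18.79 in AT10, 19.90, 13.38 and 14.68 in AT1, and 13.51, 13.86 and 17.19 in AT01. AT10 was above FCA in each library, while a single AT1 library matched the AT10 level. The log2 fold change of Orc1 was 0.25 (SE 0.08, limma adjusted p = 0.348), with an unadjusted p of 0.0553 without FCA replicate 1 and of 0.0753 without AT10 replicate 2. Orc1 has 2 records. The one used here, with the higher mean (16.4 FPKM), has no gene description in the file. The one described as origin recognition complex subunit 1 had a mean of 3.38 FPKM. In AT10 its log2 fold change was 0.24 (SE 0.11, limma adjusted p = 0.441), also with all AT10 libraries above FCA. The records used for Mcm2, Mcm7, Rfc1, Rfc3, Pold1 and Tyms lack a description as well, which makes 7 of the 44 genes. So does the record of Orc2, a gene of the wider list below. Orc6, a further subunit, Cdc6 and Cdt1, the loaders of the MCM ring, and Gmnn, which encodes geminin, the inhibitor of Cdt1, had log2 fold changes of 0.11, 0.11, 0.12 and 0.20, none under an unadjusted p of 0.05. Gmnn, at 18.9 FPKM, was expressed above Cdt1 (9.34 FPKM) and Cdc6 (4.66 FPKM).

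The MCM2-7 ring, a heterohexamer with 1 copy of each subunit, varied little. Its subunits averaged 30.9 FPKM (Mcm2), 26.1 (Mcm3), 28.9 (Mcm4), 31.7 (Mcm5), 37.1 (Mcm6) and 39.3 (Mcm7), so the highest was 1.51 times the lowest. The sum of the 6 was 194.42, 198.45 and 195.15 FPKM in FCA, 202.57, 198.85 and 202.55 in AT10, 176.59, 197.71 and 185.84 in AT1, and 215.04, 190.64 and 169.89 in AT01. FCA and AT10 each varied by little, with a mean of 196 ± 2.15 and 201 ± 2.14 FPKM (SD of 3 libraries), and AT01 by 192 ± 22.6. AT01 replicate 1 was the highest of the 12 libraries for 3 subunits and AT01 replicate 3 the lowest for 5 of the 6. In AT10 against FCA the log2 fold changes of the subunits ran from −0.10 (Mcm3) to 0.10 (Mcm6), the smallest unadjusted limma p being 0.143.

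The genes of helicase activation held both steady and unsteady members. Mcm10, an initiation factor that helps the ring to fire, and Gins4 stayed within narrow ranges, from 3.63 to 4.57 and 20.80 to 25.97 FPKM over the 12 libraries. Cdc45, which joins the ring as it fires, ran from 2.04 to 3.09 FPKM, a highest library of 1.51 times the lowest. Gins1 had 8.70, 6.36 and 8.17 FPKM in FCA, 8.82, 9.39 and 13.07 in AT10, 9.61, 7.05 and 9.20 in AT1, and 8.78, 8.05 and 6.10 in AT01, with a log2 fold change in AT10 of 0.38 (SE 0.18, limma adjusted p = 0.460), the largest of the 44. Gins3 had 0.47, 2.56 and 3.13 FPKM in FCA, 3.30, 0.93 and 3.06 in AT10, 3.20, 3.43 and 3.38 in AT1, and 2.73, 3.38 and 2.98 in AT01. A single low library in FCA and another in AT10 thus set its differences, and the log2 fold change in AT10 was 0.21 with all libraries and −0.25 without FCA replicate 1. GINS is a tetramer of Gins1 to Gins4, and Gins4 was at 23.1 FPKM where Gins2 and Gins3 were at 2.63 and 2.71. The record of Gins4 holds 8 transcripts, that of Gins2 holds 2 and that of Gins3 holds 1.

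Primase and polymerase alpha, the enzyme that lays down each primer, gave mixed values. Pola1, the catalytic subunit of polymerase alpha, had 1.69, 2.06 and 2.91 FPKM in FCA, 2.86, 2.81 and 3.55 in AT10, 3.00, 2.78 and 3.31 in AT1, and 2.13, 3.26 and 3.04 in AT01. The highest FCA library overlapped all 3 doses, and the lowest FCA library was below every treated one. Its log2 fold change in AT10 was 0.35 (SE 0.17, limma adjusted p = 0.457). Pola2, the second subunit, had 5.91, 5.79 and 6.12 FPKM in FCA and 5.73, 5.19 and 5.13 in AT10, a log2 fold change of −0.13 (SE 0.07, limma adjusted p = 0.514). The primase subunits Prim1 and Prim2 had log2 fold changes of 0.24 and 0.14, and Pold1, Pole and Pole2, of polymerases delta and epsilon, which copy the lagging and the leading strand, of −0.04, 0.05 and 0.18, none under an unadjusted p of 0.05.

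Among the nucleotide supply genes Rrm1 and Tyms were higher in AT10. Rrm1, the large subunit of ribonucleotide reductase, had 34.70, 33.58 and 35.15 FPKM in FCA, 37.58, 40.10 and 37.31 in AT10, 40.98, 35.59 and 39.47 in AT1, and 31.03, 43.83 and 37.02 in AT01. Both AT10 and AT1 lay above FCA in every library, and AT01 held the lowest and the highest value of the 12. The log2 fold change of Rrm1 in AT10 was 0.15 (SE 0.06, limma adjusted p = 0.407), and its unadjusted p exceeded 0.05 once any of the 3 FCA libraries, AT10 replicate 1 or AT10 replicate 2 was left out (0.0613 to 0.130). Tyms, the thymidylate synthase, had 8.54, 7.96 and 8.20 FPKM in FCA, 9.17, 9.82 and 10.47 in AT10, 8.04, 7.70 and 10.33 in AT1, and 7.43, 6.99 and 9.29 in AT01, a log2 fold change in AT10 of 0.23 (SE 0.07, limma adjusted p = 0.332). The unadjusted p of Tyms exceeded 0.05 without FCA replicate 2, FCA replicate 3, AT10 replicate 2 or AT10 replicate 3 (0.0536 to 0.0605). A second Tyms record, at a mean of 8.25 FPKM, had 7.24, 7.29 and 7.17 FPKM in FCA and 7.38 to 9.81 in the 9 treated libraries. Each treated library was above all FCA libraries, as for 111 of the 11611 records tested, by a narrow margin (7.38 against 7.29 FPKM). In AT10 its log2 fold change was 0.21 (SE 0.06, limma adjusted p = 0.296). It was 0.20 in AT1 (limma adjusted p = 0.444) and 0.24 in AT01 (limma adjusted p = 0.727). Over the 9 libraries it was 0.22 (limma adjusted p = 0.335). Before adjustment the limma p was under 0.05 in AT10, in AT1 and over the 9, but not in AT01. The counts of the 44 genes leave this record out. Reads can be split between records of 1 gene, so the value of a single record of Orc1 or Tyms is uncertain. Rrm2, the small subunit that carries the radical and limits the enzyme in S phase, was at 31.6 FPKM and had a log2 fold change of 0.08.

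Of the cyclin E genes, which encode the partner of Cdk2 at the entry into S phase, Ccne2 had 3.80, 4.50 and 4.58 FPKM in FCA, 6.32, 5.16 and 5.03 in AT10, 5.26, 4.05 and 4.12 in AT1, and 2.35, 4.93 and 5.18 in AT01, and in AT10 its log2 fold change was 0.29 (SE 0.11, limma adjusted p = 0.401). With any of the 3 FCA libraries, AT10 replicate 1 or AT10 replicate 2 left out the unadjusted p of Ccne2 was above 0.05 (0.0546 to 0.118). Ccne1 had 10.28, 9.91 and 9.96 FPKM in FCA, 6.88, 7.86 and 10.44 in AT10, 7.02, 6.95 and 8.51 in AT1, and 9.09, 11.03 and 8.41 in AT01. Its AT10 libraries ranged from below to above FCA (log2 fold change −0.25, SE 0.14, limma adjusted p = 0.530), and whether Ccne1 and Ccne2 responded differently was not tested. E2f1, the activator whose level rises at the entry into S phase in other cells, had a mean of 4.14 FPKM and a log2 fold change in AT10 of −0.16 (95% interval −0.40 to 0.08).

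The remaining genes, of single strand protection, ligation and chromatin assembly, held no member under an unadjusted p of 0.05 in AT10. Rpa1 and Rpa2, which coat single-stranded DNA, had log2 fold changes of 0.05 and 0.06, and Lig1, the ligase of Okazaki fragments, of −0.04. Fen1, the flap nuclease that trims Okazaki fragments, had 9.97, 13.34 and 10.83 FPKM in FCA and 10.68, 10.64 and 1.24 in AT10, so that the log2 fold change of −0.87 (limma adjusted p = 0.624) was −0.08 without AT10 replicate 3. The histone chaperone subunits Chaf1a and Chaf1b, the stem-loop binding protein gene Slbp, which handles replication-dependent histone mRNA, and Uhrf1, which recruits the maintenance DNA methyltransferase, had log2 fold changes of 0.10, −0.06, 0.06 and 0.03.

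**Figure D3:**
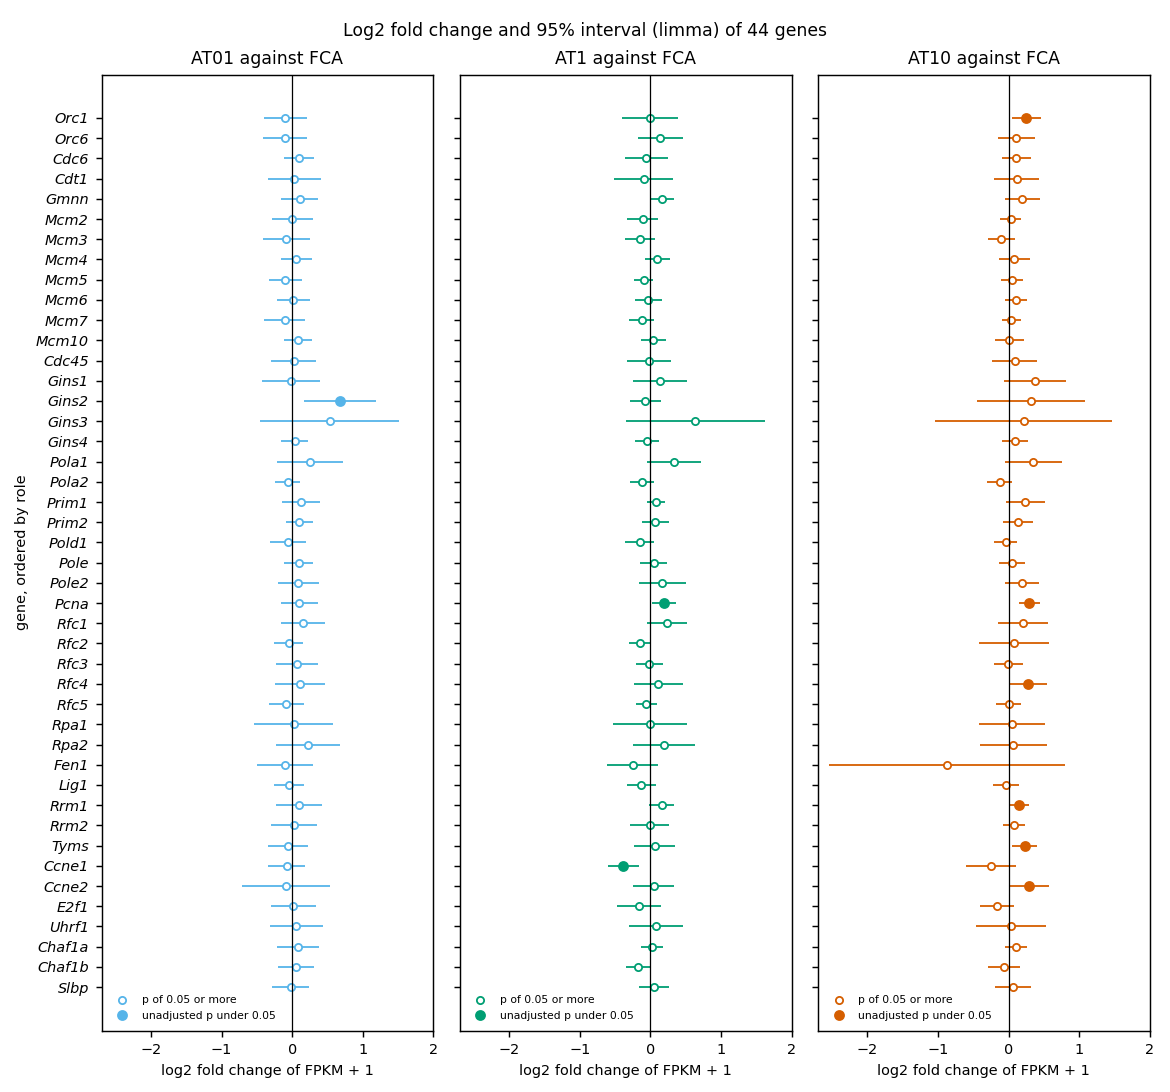
Points are the log2 fold change of each gene against FCA on the log2(FPKM + 1) scale and bars its 95% interval from limma, with 1 panel per dose; filled points have an unadjusted p under 0.05. The filled points number 6 in AT10, 2 in AT1 and 1 in AT01, and the widest interval is that of Fen1 in AT10.

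In AT1 against FCA, at the middle dose, higher and lower genes were balanced. The log2 fold changes were positive for 21 genes and negative for 23, with a median of −0.004 (0.02 over all records tested). At an unadjusted p under 0.05 in limma 1 gene, Pcna, was higher (5.56% of all records tested were) and 1, Ccne1, was lower (5.44% of all records), and 0 passed the adjusted p (0.0947% of all records), the smallest being 0.413. With the replicate number as a block 0 were higher (5.12% of all records) and 2, Ccne1 among them, lower (4.56% of all records). Ccne1, at the values given above, had a mean of 7.49 ± 0.881 FPKM in AT1 and 10.1 ± 0.201 in FCA (SD of 3 libraries), with every AT1 library below every FCA library. Its log2 fold change was −0.38 (SE 0.09, limma adjusted p = 0.413) and kept an unadjusted p under 0.05 with any of the 6 libraries left out, at −0.47 to −0.34. Pcna had a log2 fold change of 0.19 in AT1 (SE 0.07, limma adjusted p = 0.428), and only the fit without AT1 replicate 1 kept its unadjusted p under 0.05 (0.0521 to 0.0769 without FCA replicate 1, 2 or 3 or AT1 replicate 2 or 3).

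Several genes were separate from FCA in AT1, of which only Pcna and Ccne1 had an unadjusted p under 0.05 in limma. All AT1 libraries were above FCA for 6 genes, Pcna, Rfc1, Prim1, Gmnn, Gins3 and Rrm1, and below it for 5, Mcm5, Rfc2, Pola2, Ccne1 and Chaf1b (1146 and 1163 of the 11611 records). Without AT1 replicate 2, the AT1 library with the most genes above their median over the libraries (25 of 44), 6 genes were lower at an unadjusted p under 0.05 in place of 1 (5.38% of all records). Gmnn had 18.05, 16.08 and 17.87 FPKM in FCA and 19.61, 18.71 and 20.22 in AT1, a log2 fold change of 0.16 (SE 0.07, limma adjusted p = 0.453). Chaf1b had 5.13, 5.86 and 5.49 FPKM in FCA and 4.60, 4.98 and 4.73 in AT1, a log2 fold change of −0.17 (SE 0.07, limma adjusted p = 0.455). The 95% interval lay within ±0.5 for 34 of the 44 genes.

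In AT01 against FCA, at the lowest dose, 28 genes had a positive and 16 a negative log2 fold change, with a median of 0.03 (0.002 over all records tested). Gins2 alone was higher at an unadjusted p under 0.05 in limma (1 of 44, 2.57% of all records tested), 0 were lower (4.03% of all records), and 0 passed the adjusted p (0.0947% of all records). Gins2, a subunit of the GINS complex, had 2.01, 1.75 and 2.10 FPKM in FCA, 2.45, 4.51 and 4.56 in AT01, 1.95, 1.80 and 1.67 in AT1, and 5.02, 1.80 and 1.95 in AT10. It was thus at about 2 FPKM in most libraries and above 4 in a pair of AT01 libraries and in AT10 replicate 1. The log2 fold change in AT01 was 0.68 (SE 0.21, limma adjusted p = 0.696), and the unadjusted p was above 0.05 without FCA replicate 2, AT01 replicate 2 or AT01 replicate 3 (0.0566 to 0.0586). In AT10 the log2 fold change of Gins2 was 0.32 with all libraries and −0.04 without AT10 replicate 1. The 95% interval lay within ±0.5 for 38 of the 44 genes, and AT01 did not overlap FCA for Gins2 only (693 records of 11611 were higher and 936 lower without overlap).

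**Figure D4:**
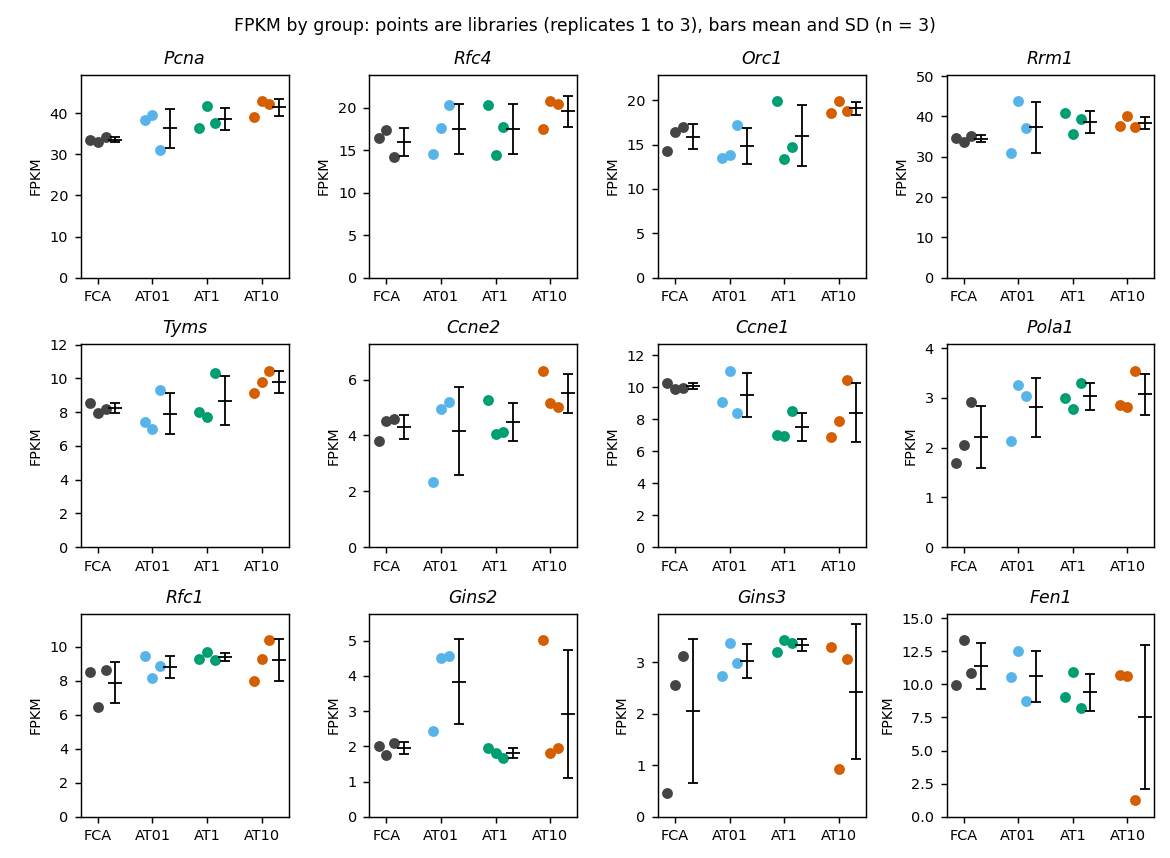
Each panel plots the FPKM of a gene in the 3 libraries of each group (points) with the mean and SD (bars, n = 3), on axes that start at 0. Pcna in AT10 lies at 39.03 to 42.95 against 33.00 to 34.28 in FCA, and Ccne1 in AT1 at 6.95 to 8.51 against 9.91 to 10.28. Gins2 and Gins3 show a few libraries, and Fen1 a single library, far from the rest.

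The 3 comparisons with FCA share the FCA libraries, so what they have in common is not independent, and a fit of all 9 TCDCA libraries against FCA was used for a difference shared by the doses. In it 31 genes had a positive and 13 a negative log2 fold change, with a median of 0.05 (0.003 over all records tested). At an unadjusted p under 0.05 in limma 3 genes were higher (6.82%, where 5.86% of all records tested were), 0 were lower (6.15% of all records) and 0 passed the adjusted p (0.0258% of all records). Pola1 was at 2.97 ± 0.406 FPKM over the 9 libraries and 2.22 ± 0.626 over the 3 (mean ± SD), a log2 fold change of 0.31 (SE 0.12, limma p = 0.0239, adjusted p = 0.363, exact permutation p = 0.0318). It was above an unadjusted p of 0.05 without FCA replicate 1 (0.169) or FCA replicate 2 (0.0791). Pcna had a log2 fold change of 0.20 (SE 0.08, limma p = 0.0386, adjusted p = 0.389, exact permutation p = 0.0409), with 8 of the 9 treated libraries above every FCA library. Rfc1, the large subunit of the clamp loader, had 8.55, 6.49 and 8.66 FPKM in FCA, 7.98, 9.31 and 10.40 in AT10, 9.28, 9.69 and 9.23 in AT1, and 9.46, 8.16 and 8.87 in AT01, a log2 fold change of 0.20 (SE 0.09, limma p = 0.0483, adjusted p = 0.411, exact permutation p = 0.0455). Without FCA replicate 2, its low FCA library, the log2 fold change of Rfc1 was 0.08 (limma adjusted p = 0.878). The unadjusted p of Pcna exceeded 0.05 once any of the 3 FCA libraries, any of the 3 AT10 libraries, AT1 replicate 2 or AT01 replicate 2 was left out, and that of Rfc1 once FCA replicate 2, AT10 replicate 2 or 3, any AT1 library, AT01 replicate 1 or AT01 replicate 3 was. With the replicate number as a block Rfc1 was no longer under 0.05 before adjustment.

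Over the 4 groups at once, no gene of the set passed. The F test of limma called 0 of the 44 at an unadjusted p under 0.05 (8.57% of all records tested) and 0 at an adjusted p under 0.05 (0.0431% of all records), with a smallest adjusted p of 0.592. Such a p does not show that the groups are alike, and the intervals above bound the differences.

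Between the doses, most genes of the set had a higher mean in AT10 than in AT1. In AT10 against AT1 the log2 fold change was positive for 34 genes and negative for 10, with a median of 0.08 (−0.01 over all records tested), yet 0 genes were higher (2.72% of all records) or lower (3.74% of all records) at an unadjusted p under 0.05 in limma, and 0 at an adjusted p (0.258% of all records). The smallest p was that of Mcm5, at 33.5 ± 1.40 FPKM in AT10 and 30.3 ± 0.547 in AT1 (SD of 3 libraries), a log2 fold change of 0.14 (SE 0.06, limma adjusted p = 0.748). In AT10 against AT01 31 were positive and 13 negative, with a median of 0.05 (−8.43e-05 over all records tested). Orc1 was higher (1 of 44, 2.14% of all records) at a log2 fold change of 0.35 (SE 0.11, limma adjusted p = 0.867), with each AT10 library above each AT01 library, 0 were lower (2.82% of all records) and 0 passed the adjusted p (0.0689% of all records). The call of Orc1 was lost without AT10 replicate 2, AT01 replicate 1 or AT01 replicate 2. It also rests on the record without a description. In the record described as Orc1 the AT10 and AT01 libraries overlapped, at a log2 fold change of 0.14 (SE 0.11, limma adjusted p = 0.867). In AT1 against AT01 17 were positive and 27 negative, with a median of −0.03 (0.02 over all records tested). Gins2 was lower (1 of 44, 1.71% of all records) at a log2 fold change of −0.75 (SE 0.21, limma adjusted p = 1), 0 were higher (1.72% of all records) and 0 passed the adjusted p (0.129% of all records). With the replicate number as a block 1 gene was higher in AT10 against AT1 (2.13% of all records) and 2 in AT10 against AT01 (2.63% of all records). Against the same FCA libraries the median over the set was 0.03 at 0.1 µM, −0.004 at 1 µM and 0.08 at 10 µM. With a library left out it ran from 0.00587 (without AT01 replicate 1) to 0.0965 (without AT01 replicate 3) at 0.1 µM, from −0.0150 to 0.0279 at 1 µM and from 0.0664 to 0.113 at 10 µM. The sign of AT1 against AT01 turned without AT01 replicate 2 (0.00604) and that of AT10 against AT01 without AT01 replicate 3 (−0.00291), so no order of AT01 among the doses is read from these medians.

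A wider list of 65 genes of replication and G1/S control outside the set, of which 60 had a record and 56 were tested, was read from the same fits. In AT10 against FCA 10 of the 56 were higher (17.9%, where 7.54% of all records were) and 0 lower (4.34%) at an unadjusted p under 0.05, with a median log2 fold change of 0.12. In AT1 5 were higher (8.93%, where 5.56% of all records were) and 2 lower (3.57%, where 5.44% were), with a median of 0.04. In AT01 2 were higher (3.57%, where 2.57% of all records were) and 0 lower (4.03%), with a median of 0.05, and over all 9 treated libraries 6 were higher (10.7%, where 5.86% of all records were) and 0 lower (6.15%). Orc2, a subunit of the origin recognition complex, had 4.55, 4.40 and 5.25 FPKM in FCA, 9.56, 9.11 and 9.38 in AT10, 8.62, 3.26 and 6.37 in AT1, and 5.50, 7.22 and 6.31 in AT01. In AT10 it rose by a log2 fold change of 0.85 (SE 0.08, adjusted p = 0.0428 in limma), the only gene of either list to pass the adjusted threshold in any comparison. That adjusted p was between 0.0785 and 0.123 once FCA replicate 1, FCA replicate 2 or any of the 3 AT10 libraries was left out, 0.399 in a single fit of all 12 libraries and 0.334 with the replicate number as a block. Orc4, of the same complex, followed with a log2 fold change of 0.50 (SE 0.09, limma adjusted p = 0.146).

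Of the G1 regulators in the wider list, Tfdp2, a partner of E2F, and Rbl2, the retinoblastoma relative p130, had the smallest p of that list in AT1, with log2 fold changes of 0.48 (limma adjusted p = 0.420) and 0.29 (limma adjusted p = 0.420). In AT01 Orc2 and Tfdp2 had log2 fold changes of 0.35 (limma adjusted p = 0.720) and 0.39 (limma adjusted p = 0.720). Over all 9 treated libraries the smallest p were those of Nasp, a histone chaperone, and Topbp1, which helps to assemble the helicase. Their log2 fold changes were 0.30 (limma adjusted p = 0.274) and 0.24 (limma adjusted p = 0.295). For both each treated library exceeded each FCA library, as for 3 of the 56 genes and 111 of the 11611 records tested. The exact permutation p was then 0.0045, the smallest that 9 against 3 libraries can give. The margins were narrow, with a lowest treated and a highest FCA library of 10.92 and 10.84 FPKM for Nasp and 5.71 and 5.69 FPKM for Topbp1.

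Of the 38 genes of mitosis and G2/M listed as the nearest neighbour of the set, 36 were tested. At an unadjusted p under 0.05 in limma 11 were higher and 0 lower in AT10, 13 and 1 in AT1, 4 and 0 in AT01 and 11 and 0 over all 9 treated libraries, with medians of 0.06, 0.11, 0.09 and 0.10. Those higher were 30.6%, 36.1%, 11.1% and 30.6% of the 36, against 7.54%, 5.56%, 2.57% and 5.86% of all records tested. Beside them the 44 replication genes had 6 and 0, 1 and 1, 1 and 0, and 3 and 0, which puts those higher at 13.6%, 2.27%, 2.27% and 6.82%, with medians of 0.08, −0.004, 0.03 and 0.05. The difference between the lists was not tested.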

How the data were processed

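Poly(A) RNA of 12 libraries, 3 in each of the FCA, AT01, AT1 and AT10 groups, was sequenced. Groups were taken from the labels of the samples. Reads were aligned by the authors with HISAT2, and StringTie with Ballgown gave the expression values. The deposited values are FPKM, written to 2 decimals, for 22442 gene records. The processing notes of the submitters also name cutadapt and edgeR. The genome build is not given in the sources used here, no scaling between libraries is stated, and the labels and the methods name different sequencers. FPKM carries no read counts, and the read totals listed by the study entered no calculation here, so no counting error is given. A record may share reads with overlapping or duplicated records.

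Values were transformed as log2(FPKM + 1), so that a fold change of a low gene is understated. The 11611 records whose mean reached 1 FPKM entered limma (version 3.58.1, run in R 4.3.3, moderated with a trend over expression), fitted on the libraries of the groups compared, and p-values were adjusted by Benjamini-Hochberg over all 11611. For single genes the means were also compared by exact permutation (two-sided). The scripts were tested on simulated data, and tables and plots were made with Python 3.11.15, NumPy 2.4.6, pandas 2.3.3 and Matplotlib 3.10.9.

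The 44 genes, the wider lists and the rules were chosen with earlier results of these data known. All 44 are named. Values in every library are given for genes with an unadjusted p under 0.05 against FCA or an adjusted p under 0.05 in any comparison, and, chosen after their values were seen, for Gins1, Gins3 and Fen1 and in some groups for Pola2, Gmnn, Chaf1b and Rfc2. Of the wider list, genes past the adjusted threshold and the 2 of smallest p per comparison with FCA are named. Whether equal replicate numbers pair libraries was checked by the correlation of their deviations from the group means: over 18 pairs of libraries r ran from −0.11 to 0.09 over all records, with 0 above 0.1, and from −0.33 to 0.26 over the 44 genes, with 7 above 0.1. The study calls the numbers sets of repeats without saying what a set shares, so the main fits have no block, and the blocked value stands beside each count it moved by over 1.5 times. Alternatives were another pseudocount, no filter, 1 fit of all libraries, median-of-ratios scaling, summed records, removal of records at 2 levels, a replicate block and each library left out.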

Additional observations from a re-analysis of the deposited data

Results flagged for a closer look

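The 9 TCDCA libraries were screened for each of the 44 genes for a highest or lowest library whose gap to the next exceeded Dixon's 95% critical value, 0.493 of the whole range for 9 values. For normal values of a single population chance flags about 1 in 20 such groups, and 5 of the 44 genes were flagged. The screen pooled the doses and was not run over the other records, so this count is not read as an excess of the set.

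Rfc2, a subunit of the clamp loader, had 22.37 FPKM in AT10 replicate 3, where the other 8 treated libraries had 12.64 to 15.48 and FCA 14.92 to 15.21, a gap of 0.649 of the range. Fen1, the flap nuclease, had 1.24 FPKM in the same library, against 8.22 to 12.53 in the other treated libraries and 9.97 to 13.34 in FCA (0.787 of the range). Gins3, of the GINS complex, had 0.93 FPKM in AT10 replicate 2, against 2.73 to 3.43 in the other treated libraries (0.793 of the range), and FCA itself ran from 0.47 to 3.13. Pola1 had 2.13 FPKM in AT01 replicate 1, against 2.78 to 3.55 elsewhere among the treated libraries and 1.69 to 2.91 in FCA (0.504 of the range). Ccne2 had 2.35 FPKM in that library too, against 4.05 to 6.32 in the other treated libraries and 3.80 to 4.58 in FCA (0.525 of the range).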

How the results depend on the processing

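No called result changed sign, and 0 of the 44 genes passed the adjusted p under any alternative. Counts below are genes of the set at an unadjusted p under 0.05. A count is followed by the share of all records under the same setting. Ranges over left-out libraries carry the share at a named end or the range of shares. With a pseudocount of 0.1, 1 gene was higher in AT10 against AT1 (2.65%). With no filter on low values 3 were lower (4.31%) and 4 higher (4.35%) in AT1 against FCA, 2 were higher in AT10 against AT1 (2.61%) and the F test called 1 (7.00%). In 1 fit of all 12 libraries 1 was higher in AT10 against FCA (5.52%) and 0 in AT1 against FCA (5.25%), 2 were higher in AT10 against AT01 (3.45%) and 2 lower in AT1 against AT01 (1.87%). With median-of-ratios scaling 3 were lower in AT1 against FCA (6.80%) and 3 in AT1 against AT01 (2.19%), 2 were higher in AT10 against AT1 (3.28%), 1 was lower over all TCDCA libraries (7.06%) and the F test called 1 (8.92%). With the replicate number as a replicate block 3 were higher in AT10 against FCA (7.09%), 2 lower (4.56%) and 0 higher (5.12%) in AT1 against FCA, 1 higher in AT10 against AT1 (2.13%) and 2 higher in AT10 against AT01 (2.63%), and the block changed no other of these counts by over 1.5 times. The cause of these changes was not tested. With a library left out, the higher genes in AT10 against FCA numbered 1 (without AT10 replicate 2, 5.52%) to 6. The lower ones there numbered 0 to 2 (without AT10 replicate 3, 3.69%). In AT1 against FCA 0 to 1 were higher (3.18% to 6.87%) and 1 to 6 lower (6 without AT1 replicate 2, 5.38%), with a median of −0.0150 to 0.0279. For AT01 against FCA the numbers were 0 to 2 and 0 to 1 (both highest without AT01 replicate 1, 3.59% and 5.28%), with a median of 0.00587 to 0.0965. In AT10 against AT1 0 to 3 were higher (3 without AT1 replicate 2, 2.53%). In AT10 against AT01 0 to 2 were higher (1.77% to 5.07%) and 0 to 1 lower (2.02% to 4.18%), with a median of −0.00291 (without AT01 replicate 3) to 0.0808. In AT1 against AT01 0 to 1 were higher (1.23% to 2.17%) and 1 to 3 lower (3 without AT01 replicate 3, 2.39%), with a median of −0.0842 to 0.00604. Over all TCDCA libraries 0 (without FCA replicate 2, 2.96%) to 4 were higher and 0 to 2 lower (both highest without AT01 replicate 1, 8.81% and 6.94%), and the F test called 0 to 3 (without AT01 replicate 3, 11.1%). The adjusted p of Orc2 in AT10 was 0.0747 with no filter, 0.0604 without records at 2 levels and 0.334 with the block. Leaving out libraries for Fen1, Gins2, Gins3 and Rfc2 was chosen after seeing the data.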

Other observations

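Outside the 44 genes, the D-type cyclin Ccnd1 and its kinase Cdk4 were the most abundant of the wider G1/S list, at means over the 12 libraries of 125 and 92.9 FPKM, against 8.86 and 4.61 FPKM for the cyclin E genes Ccne1 and Ccne2. The mean of Ccnd1 was lowered by AT1 replicate 3, at 30.50 FPKM, where the other libraries had 126.51 to 140.33. Ccnd1 has 2 records, and these are the values of the one with the higher mean. Its level in a single library is therefore uncertain, since reads can be split between records.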
